A study of Homo sapiens with 6 samples.

Results

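The nuclear genes for the subunits of the respiratory chain and of ATP synthase were followed across 6 plating densities of MCF10A, a human breast epithelial cell line that is immortal but does not form tumours. A gene was a member if its symbol starts with NDUFA, NDUFB, NDUFC, NDUFS, NDUFV, UQCR, COX4I, COX5, COX6, COX7, COX8 or ATP5, or is SDHA, SDHB, SDHC, SDHD or CYC1; assembly factors of the NDUFAF type and pseudogenes were left out. The RefSeq gene table held 89 such genes. Of these, 80 had at least 1 probe set annotated to them alone, among 19775 genes measured in all: 33 of complex I, 3 of complex II, 7 of complex III, 19 of complex IV and 18 of complex V. Another 5 genes (NDUFC2, NDUFS5, NDUFS8, UQCRH and UQCRHL) had only probe sets shared with other genes, and 4 genes were not analysed here. NDUFA4 and NDUFA4L2 appear under their current symbols, COXFA4 and COXFA4L2, and stand with complex IV.

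The 6 groups differed only in the number of cells seeded in a 35 mm dish, which the labels give as 50K, 100K, 200K, 400K, 600K or 800K, a 16-fold range. The labels give no other treatment; all cells grew for 24 h in the same medium with horse serum, EGF, hydrocortisone, cholera toxin and insulin, and gave 1 Affymetrix HG-U133 Plus 2 array per density, so no density has a replicate. All values therefore describe 1 cell line in culture.

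Complex I takes electrons from NADH and complex II takes them from succinate; both pass them to ubiquinone, from which complex III hands them to cytochrome c and complex IV to oxygen. Complexes I, III and IV pump protons out of the mitochondrial matrix, and complex V, the ATP synthase, lets them back in to make ATP. Mitochondrial DNA encodes a few membrane subunits of complexes I, III, IV and V, while all other subunits, including every member described here, are encoded in the nucleus. Several complex IV subunits exist as paralogs, of which some are known mainly from muscle, testis or hypoxic cells.

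Every value is the ratio of a gene on an array to the same gene on the 50K array, so the 50K value is 1 by construction and an error on that array moves all 5 other ratios of a gene together. Ratios carry no level: levels of different genes cannot be compared, and whether a gene is detected at all, epithelial markers included, cannot be read from them. The density trend of a gene was its log2 change per doubling of the plated cells, fitted as a straight line with limma over the 6 arrays (4 residual degrees of freedom) and called at an adjusted p under 0.05 (Benjamini-Hochberg over all 19775 genes). Without replicates, p-values measure the scatter of the arrays around a straight line. In RNA from whole cultures, fewer cells of a type and less RNA per cell cannot be told apart. Median ratios over all probe sets stayed between 0.02 and 0.05 on the log2 scale on the 5 denser arrays.

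With all 6 arrays in the fit, subunit genes of all 5 complexes were called rising with density. Of the 80 members, 37 (46.2%) were called rising, where 8.93% of all genes were called rising, and 0 were called falling in limma, where 12.4% of all genes were called falling. At an unadjusted p under 0.05 there were 52 members, and 73 of the 80 slopes were positive. The median slope of the members was 0.072 log2 units per doubling, against 0.0045 over all genes. On each of the 3 densest arrays, 47 members (58.8%) lay above all 3 sparsest arrays, which held for 13.8% of all genes; 1 member, NDUFV3, lay below on all 3, which held for 17.9% of all genes. Of the 80 members, 9 reached 1.5-fold at 800K, against 1181 of all 19775 genes (5.97%), and 0 members were 1.5-fold lower, against 7.75% of all genes. When the 50K array was left out, 15 members were called rising, beside 1298 of all 19775 genes. In complex I, 2 of 33 members were then called, a share near that of all genes. Leaving out the 600K array or the 800K array gave 22 members each, beside 1045 and 1026 genes. In complex II, 0 of 3 members were called in limma without either of these arrays. Of the 37, 13 were called whichever array was left out.

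The mean log2 ratio over the 80 members was 0.13, 0.14, 0.24, 0.31 and 0.29 on the 5 arrays from 100K to 800K, and the last of these corresponds to a 1.22-fold ratio. Members therefore stood above their 50K value at every higher density on average. Going from 50K to 100K, 90% of members were higher, against 65.2% of all genes. Only 48.8% were higher at 200K than at 100K, against 35.5% of all genes. Most were higher again at the next steps, 78.8% between 200K and 400K and 82.5% between 400K and 600K, against 38.3% and 63.5% of all genes. At the last step, to 800K, 41.2% of members and 36.4% of all genes were higher, and the median step of the members was −0.015. Of the 37 rising members, 19 had their highest value at 800K, 17 at 600K and 1 at 400K. A quadratic term, which would show a peak or a plateau, was called in 0 members and in 0% of all genes in limma. At an unadjusted p under 0.05 it was found in 5 of 80 members and 2496 of 19775 genes, a smaller share of the members.

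**Figure D1:**
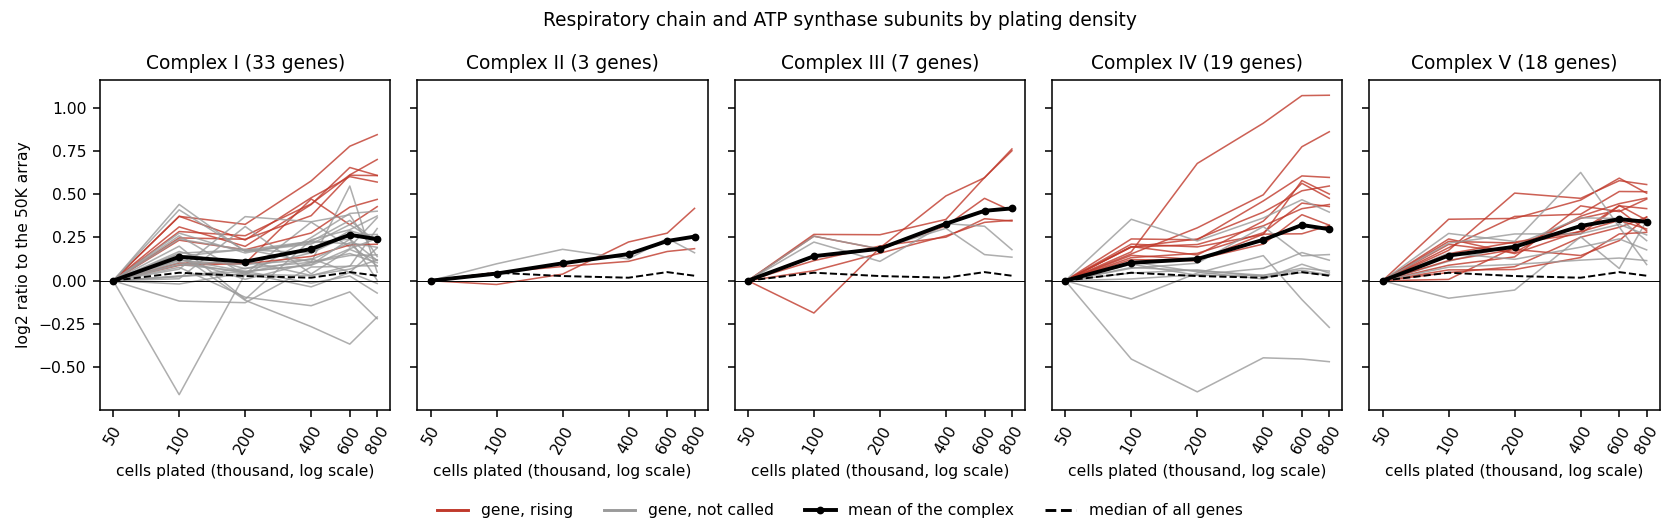
Log2 ratio to the 50K array (y axis) against cells plated on a log scale (x axis), 1 panel per complex; thin lines are genes, red where called rising and grey where not called, the thick line is the mean of the complex and the dashed line the median of all 19775 genes. The complex means climb above the dashed line in each panel, to 0.24 (I), 0.25 (II), 0.42 (III), 0.30 (IV) and 0.34 (V) at 800K.

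Because many of these genes moved together, their promoters were searched for letters bound by factors known to act on respiratory genes. RefSeq promoter sequences (GRCh38.p14, 250 bases before to 50 bases after the first listed start) were found for 68 of the 80 members and were set beside all 27305 promoters of the same table, 1 per gene; base composition was not matched. On either strand, the site of NRF1 (GCGCA, any base, GCGC) was in 23.5% of the members' promoters and 6.28% of all promoters. CCGGAAG, a site of ETS factors such as GABP, was in 26.5% of the members' promoters and 10.7% of all promoters. AAGATGGCG, a site of YY1, was in 10.3% against 1.85%, and TCAAGGTCA, a site of the ERR receptors, in 1.47% against 0.359%. At least 1 of the 4 motifs was in 51.5% of the members' promoters and 17.3% of all promoters, and different motifs overlapped in 0 promoters of members. Members called rising and members not called had the NRF1 site in nearly equal shares, 24.1% of 29 and 23.1% of 39; the ETS site was in 37.9% of the rising members and 17.9% of those not called, a difference that was not tested.

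For each complex, the 250 bases before the start are shown for the rising member with the largest slope whose table window begins at the annotated gene start, which for complex I is NDUFA1, and COX5B is added as the second member of complex IV, chosen after its values were seen. Capitals mark motif matches that lie wholly in the printed bases.
NDUFA1 (chrX:119871582-119871831, plus strand): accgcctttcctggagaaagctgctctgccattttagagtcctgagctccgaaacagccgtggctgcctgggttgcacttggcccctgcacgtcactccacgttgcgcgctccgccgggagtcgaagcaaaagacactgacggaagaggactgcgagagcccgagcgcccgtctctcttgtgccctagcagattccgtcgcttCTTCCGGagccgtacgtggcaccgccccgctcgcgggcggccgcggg
SDHD (chr11:112086623-112086872, plus strand): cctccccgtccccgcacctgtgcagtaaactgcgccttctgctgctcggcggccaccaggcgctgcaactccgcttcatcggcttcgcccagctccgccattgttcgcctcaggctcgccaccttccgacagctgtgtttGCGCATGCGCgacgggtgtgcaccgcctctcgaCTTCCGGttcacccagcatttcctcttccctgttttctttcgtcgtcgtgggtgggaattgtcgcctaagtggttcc
UQCRC2 (chr16:21953111-21953360, plus strand): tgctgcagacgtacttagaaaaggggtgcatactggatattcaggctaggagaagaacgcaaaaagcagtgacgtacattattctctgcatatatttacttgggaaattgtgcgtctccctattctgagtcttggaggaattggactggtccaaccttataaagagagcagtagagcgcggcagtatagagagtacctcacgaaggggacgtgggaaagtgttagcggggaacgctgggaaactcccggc
COX7B (chrX:77899218-77899467, plus strand): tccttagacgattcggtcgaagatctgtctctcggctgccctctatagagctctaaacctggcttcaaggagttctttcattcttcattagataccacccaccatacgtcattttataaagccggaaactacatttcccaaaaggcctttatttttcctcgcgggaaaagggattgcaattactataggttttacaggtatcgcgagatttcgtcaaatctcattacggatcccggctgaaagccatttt
ATP5F1C (chr10:7787927-7788176, plus strand): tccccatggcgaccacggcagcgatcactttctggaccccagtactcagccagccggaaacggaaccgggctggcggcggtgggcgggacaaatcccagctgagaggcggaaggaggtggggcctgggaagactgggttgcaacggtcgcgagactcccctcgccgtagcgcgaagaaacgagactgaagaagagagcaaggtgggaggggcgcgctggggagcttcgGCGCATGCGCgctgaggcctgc
COX5B (chr2:97645812-97646061, plus strand): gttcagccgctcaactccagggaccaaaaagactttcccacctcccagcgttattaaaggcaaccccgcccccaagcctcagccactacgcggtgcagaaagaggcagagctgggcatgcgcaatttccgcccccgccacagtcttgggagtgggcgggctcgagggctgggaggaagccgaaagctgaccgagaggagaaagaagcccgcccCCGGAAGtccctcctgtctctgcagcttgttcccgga
Positions are counted from the start, with −1 the last printed base. In NDUFA1 the ETS site began at −47, and in SDHD an NRF1 site began at −110 and an ETS site at −77; SDHD also had the ERR site at 12, outside the printed bases. ATP5F1C had an NRF1 site at −22. COX5B had ETS sites at −37 and −5, of which the nearer runs past the printed bases. UQCRC2 and COX7B, the steepest members of complexes III and IV by the mean over their probe sets, held none of the 4 motifs in this window. A match is a run of letters only, and no binding was measured.

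In complex I, the largest of the complexes, 8 of 33 members rose (24.2%, against 8.93% of all genes) and the median slope was 0.049. Without the 50K array, 2 of the 33 were called rising, a share near that of all genes. All 8 were supernumerary subunits, which surround the catalytic core: they were 8 of 28 supernumerary members, against 0 of 5 core members (NDUFV1, NDUFV2, NDUFS1, NDUFS3 and NDUFS7) in limma, of which 2 had an unadjusted p under 0.05. Core genes NDUFV1, NDUFS7 and NDUFS1 each had 1 probe set that rose alone (limma adjusted p = 0.0203, 0.0233 and 0.0443), while those of NDUFV2 and NDUFS3 did not. Of the supernumerary members not called, NDUFB1, NDUFA11 and NDUFC1 also had a rising probe set. By name, 5 of 13 NDUFA genes, 3 of 11 NDUFB genes and 0 of 8 NDUFS and NDUFV genes were called. Whether these shares differ was not tested. The steepest was NDUFB11, a subunit of the membrane arm, with ratios of 1.29, 1.25, 1.49, 1.71 and 1.80 at 100K, 200K, 400K, 600K and 800K. All 3 of its densest arrays lay above the sparser ones, and its slope was 0.195 ± 0.025 log2 units per doubling (SE, 6 arrays; limma adjusted p = 0.00514).

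NDUFB5, another subunit of the membrane arm, had ratios of 1.22, 1.20, 1.36, 1.53 and 1.63 (slope 0.159 ± 0.021, limma adjusted p = 0.0056). NDUFA1, also of that arm, had 1.24, 1.15, 1.36, 1.57 and 1.53 (slope 0.149 ± 0.027, adjusted p = 0.0144). NDUFA13, known also as GRIM-19, had 1.19, 1.18, 1.30, 1.53 and 1.52 (slope 0.146 ± 0.021, adjusted p = 0.00726). These genes shared a first step up at 100K, no further gain at 200K and a second climb to 600K. NDUFB11 and NDUFB5 stayed called with each array left out, whereas NDUFA1 was lost without the 50K array (adjusted p = 0.102) or the 800K array (0.0522), and NDUFA13 without the 50K array (0.0513). The other rising genes were NDUFA3, NDUFA5, NDUFB8 and NDUFA2, with slopes between 0.133 and 0.049.

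The lowest slope of the complex, and of all members, was that of NDUFV3, a small subunit of the NADH-binding module, with ratios of 1.11, 0.924, 0.832, 0.776 and 0.865. It was above its 50K value only at 100K, and its slope of −0.100 ± 0.030 was not called (adjusted p = 0.0677). NDUFA6, a subunit of the matrix arm, had the next lowest slope, −0.053 ± 0.020 (adjusted p = 0.125). NDUFB1 had the second-highest slope of complex I, 0.162 ± 0.074, with ratios of 0.633, 1.03, 1.26, 1.14 and 1.29, and was not called (adjusted p = 0.198). The low value at 100K came from 1 of its 2 probe sets, at 0.349 there, whereas the other had 1.15, 1.16, 1.38, 1.48 and 1.42 and rose when tested alone (slope 0.137, limma adjusted p = 0.0127). The other 22 members not called had slopes between −0.012 and 0.087.

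Complex II, succinate dehydrogenase, has no subunit encoded in mitochondrial DNA and is also an enzyme of the citric acid cycle. SDHD, a membrane anchor, had ratios of 0.985, 1.03, 1.17, 1.21 and 1.34 from 100K to 800K and rose with a slope of 0.105 ± 0.021 (limma adjusted p = 0.0192). SDHC, the other membrane anchor, was higher at each step, with 1.03, 1.06, 1.08, 1.12 and 1.14 (slope 0.045 ± 0.011, adjusted p = 0.039). SDHA, the flavoprotein that oxidises succinate, had 1.07, 1.13, 1.09, 1.18 and 1.12, a slope of 0.043 ± 0.017 close to that of SDHC, and was not called (adjusted p = 0.135). The call of SDHD was lost without the 100K array (0.0596), the 600K array (0.0581) or the 800K array (0.0757), and that of SDHC was lost whichever array was left out (adjusted p up to 0.156). Of the 7 probe sets of SDHC, 0 were called alone in limma (adjusted p of at least 0.0719).

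In complex III, 5 of 7 members rose and the median slope was 0.093. UQCRC2, a core protein of the matrix side, had ratios of 0.879, 1.14, 1.40, 1.51 and 1.70 (slope 0.220 ± 0.037, limma adjusted p = 0.0115; 0.0515 without the 800K array). The value under 1 at 100K came from 1 of its 3 probe sets, at 0.589 there and not called alone (limma adjusted p = 0.0798). The other 2 stood at 1.10 and 1.04 and both rose alone. The same uncalled probe set reached 2.23 at 800K, with a slope of 0.363. The other 2 reached 1.51 and 1.44, with slopes of 0.156 and 0.140, below that of UQCRC1. UQCRC1, the other core protein, had 1.20, 1.20, 1.28, 1.51 and 1.68 (slope 0.161 ± 0.027, adjusted p = 0.0106; 0.0703 without the 50K array). UQCRQ, a small subunit, had 1.20, 1.14, 1.25, 1.39 and 1.32 (slope 0.098 ± 0.022, adjusted p = 0.0265; up to 0.189 with 1 array left out). CYC1, cytochrome c1, which passes electrons to cytochrome c, was higher at each step, with 1.04, 1.12, 1.20, 1.26 and 1.27 (slope 0.093 ± 0.012, adjusted p = 0.00498). CYC1 and UQCRB, a ubiquinone-binding subunit with a slope of 0.087, were the members of complex III called whichever array was left out.

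In complex IV, cytochrome c oxidase, 10 of 19 members rose, and the spread between members was the widest of the 5 complexes (slopes from −0.082 to 0.294, median 0.083). COX7B, a small subunit that lies in the membrane, had the largest slope of all 80 members: ratios of 1.12, 1.60, 1.88, 2.10 and 2.10, a slope of 0.294 ± 0.024 and a limma adjusted p of 0.00167. Its probe sets both rose but by different amounts, to 1.60 and 2.76 at 800K, with slopes of 0.168 and 0.420. The smaller of these slopes is below those of COX5B and NDUFB11, so the first place of COX7B rests on 1 probe set. COX5B, a zinc-binding subunit on the matrix side, was higher at each step, with 1.11, 1.24, 1.41, 1.71 and 1.82 (slope 0.216 ± 0.021, adjusted p = 0.00257); 1 of its 4 probe sets was at 0.814 at 100K, where the others were at 1.21 to 1.28. COX6C, a small membrane subunit, had 1.18, 1.18, 1.38, 1.52 and 1.51 (slope 0.150 ± 0.018, adjusted p = 0.00465), and COX8A, another, had 1.14, 1.18, 1.32, 1.43 and 1.46 (slope 0.134 ± 0.014, adjusted p = 0.003). These 4 genes, with COX7A2 and COX6B1, were called whichever array was left out. The remaining rising members were COXFA4, COX7A2L, COX7C and COX6A1.

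In complex V, 12 of 18 members rose, all 18 slopes were positive, and the median slope was 0.086. The rising genes were 4 of 5 subunits of the catalytic F1 part, 2 of 4 of the peripheral stalk, 2 of 3 genes for the c ring, 3 of 5 other membrane subunits and the inhibitor ATP5IF1. ATP5F1C, the gamma subunit of the central shaft, had ratios of 1.13, 1.42, 1.39, 1.49 and 1.47 from 100K to 800K (slope 0.143 ± 0.025, limma adjusted p = 0.0124; 0.0944 without the 50K array). The step at 200K came from 1 of its 4 probe sets, whose ratios were 1.01, 2.86, 2.71, 2.81 and 2.66. The other 3 had 1.09 to 1.15 at 200K and 1.17 to 1.23 at 800K, and 0 of the 4 were called alone in limma (adjusted p from 0.0542 to 0.258). ATP5F1D, the delta subunit of the same shaft, had 1.28, 1.28, 1.38, 1.51 and 1.42 (slope 0.121 ± 0.025, adjusted p = 0.0216; up to 0.121 with 1 array left out). ATP5PF, a coupling factor of the stalk, had 1.06, 1.10, 1.35, 1.32 and 1.39 (slope 0.125 ± 0.018, adjusted p = 0.00749). The F1 subunit that was not called was ATP5F1A, the alpha subunit, which had the lowest slope of complex V at 0.028 ± 0.012 (adjusted p = 0.178), with ratios of 1.06, 1.07, 1.09, 1.10 and 1.08. Its partner in the catalytic hexamer, the beta subunit ATP5F1B, had 1.18, 1.11, 1.22, 1.35 and 1.27 and was called (slope 0.087 ± 0.022, adjusted p = 0.0392; up to 0.258 with 1 array left out). The difference between these 2 genes was not tested.

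ATP5IF1 encodes the protein that binds the synthase and blocks it from hydrolysing ATP. It had ratios of 1.01, 1.14, 1.28, 1.33 and 1.22, close to 1 at 100K and highest at 600K (slope 0.103 ± 0.022, limma adjusted p = 0.0221). It was lost without the 50K, 100K or 600K array (adjusted p up to 0.0873).

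**Figure D2:**
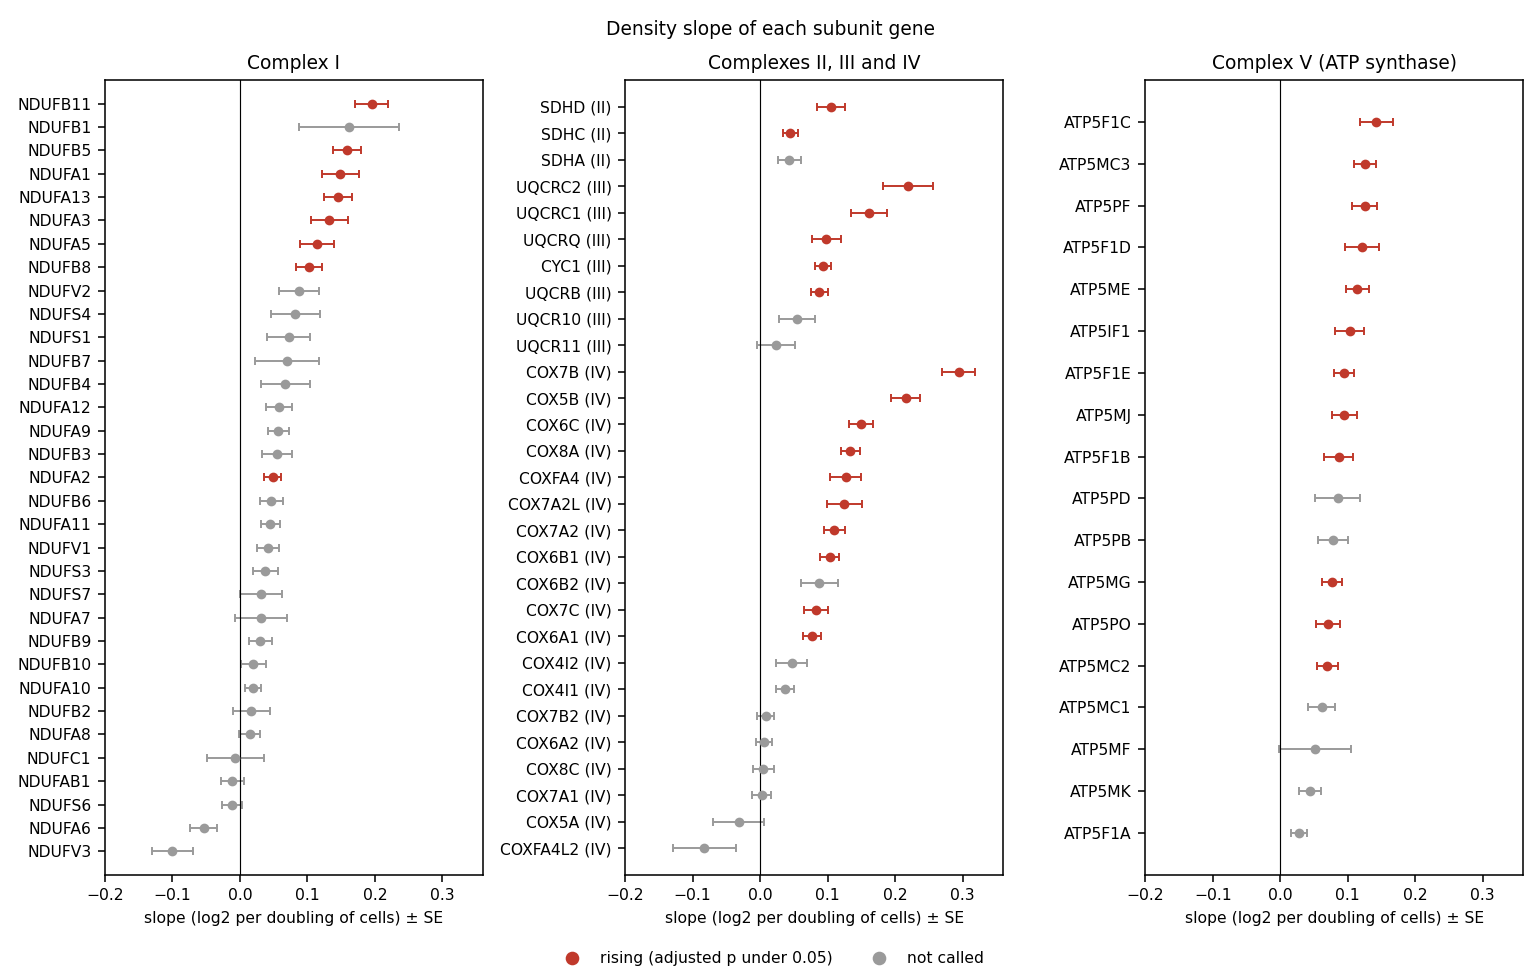
Slope of each of the 80 genes in log2 units per doubling of the cells plated (x axis, with SE bars from the limma fit), ordered by slope within complex I, complexes II to IV and complex V; red marks an adjusted p under 0.05. COX7B has the largest slope (0.294) and NDUFV3 the lowest (−0.100), and all points of complex V lie right of 0.

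Paralogs, and COX5B with COX5A, which encode different subunits, offered comparisons within the same arrays. For 11 pairs, the slope of the difference between the genes of a pair was tested two-sided against all 720 orders of the 6 densities (exact permutation, smallest possible p 0.00139), with adjustment over the 11 pairs. COX7B2, a testis form, had ratios between 1.02 and 1.05, whereas COX7B reached 2.10. The slope difference, COX7B2 minus COX7B, was −0.286 (95% interval −0.370 to −0.201, exact permutation adjusted p = 0.00764). COX8C, the testis form of COX8A, had ratios between 1.01 and 1.08, and COX8C minus COX8A was −0.129 (−0.153 to −0.105, exact permutation adjusted p = 0.00764). The muscle forms COX7A1 and COX6A2 also stayed between 1.02 and 1.07 at every density. COX7A1 minus COX7A2 was −0.108 (−0.143 to −0.072, exact permutation adjusted p = 0.0153), and COX6A2 minus COX6A1 was −0.071 (−0.109 to −0.034, exact permutation adjusted p = 0.0229). Since ratios carry no level, a flat paralog and a paralog that is not expressed look the same here.

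COXFA4L2, a paralog known to be induced in hypoxia, lay below its 50K value on all 5 other arrays. Its ratios from 100K to 800K were 0.730, 0.640, 0.734, 0.731 and 0.723, so its main step lay between the 50K array and all others. COXFA4, for which 1.15, 1.11, 1.27, 1.48 and 1.39 were measured, was above 1 on all 5 arrays. The slope difference, COXFA4L2 minus COXFA4, was −0.209 (95% interval −0.358 to −0.061, exact permutation adjusted p = 0.0153) and was −0.107 without the 50K array. COXFA4L2 alone was not called (slope −0.082 ± 0.047, limma adjusted p = 0.301).

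COX5B and COX5A encode different subunits despite their names. COX5A had ratios of 0.929, 1.03, 1.11, 0.927 and 0.829, below 1 at both 600K and 800K, where COX5B was highest. COX5B minus COX5A was 0.247 (95% interval 0.073 to 0.421, exact permutation adjusted p = 0.024). The probe sets of COX5A had slopes of opposite sign. At 800K 1 was at 0.545 (slope −0.144) and the other at 1.26 (slope 0.081), and neither was called alone. ATP5MC1, ATP5MC2 and ATP5MC3 encode the same mature c subunit with different import sequences. ATP5MC1 had 1.16, 1.21, 1.21, 1.25 and 1.20, close to flat after 100K, and ATP5MC3 had 1.14, 1.29, 1.31, 1.43 and 1.43. The difference ATP5MC1 minus ATP5MC3 was −0.064 (−0.097 to −0.031, exact permutation adjusted p = 0.0229), and ATP5MC2 minus ATP5MC3 was −0.056 (−0.118 to 0.007, exact permutation adjusted p = 0.084). Probe sets differed here too. Those of ATP5MC3 had slopes of 0.082, 0.098 and 0.197, those of ATP5MC2 had 0.004 and 0.136, and ATP5MC1 had 1 probe set.

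With 1 array left out, the COX7B2 and COX8C pairs stayed called (exact permutation adjusted p up to 0.0458), and the other 5 called pairs each lost the call without at least 1 array, COX7A1 without the 800K array (0.055) and COX6A2 without the 50K, 600K or 800K array (up to 0.105). COXFA4L2 stayed called only without the 200K or 400K array, and COX5B only without the 400K or 600K array. ATP5MC1 stayed called only without the 50K or 100K array. With an array left out there are fewer than 720 orders, so the smallest possible p is above 0.00139. A lost call can come from this limit alone and cannot show that a difference depends on the array left out. The slope differences of these 5 pairs kept their sign whichever array was left out. No difference was called for the other 3 pairs. COX4I2, a form known from lung, minus COX4I1 was 0.009 (95% interval −0.073 to 0.092, exact permutation adjusted p = 0.811). COX6B2, a testis form, minus COX6B1 was −0.015 (−0.073 to 0.043, adjusted p = 0.599 in the exact permutation), and COX6B2 had ratios of 1.28, 1.17, 1.29, 1.38 and 1.32. COX7A2L, which joins complexes III and IV into supercomplexes, minus COX7A2 was 0.015 (−0.027 to 0.057, adjusted p = 0.465 in the exact permutation), with both genes called rising.

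**Figure D3:**
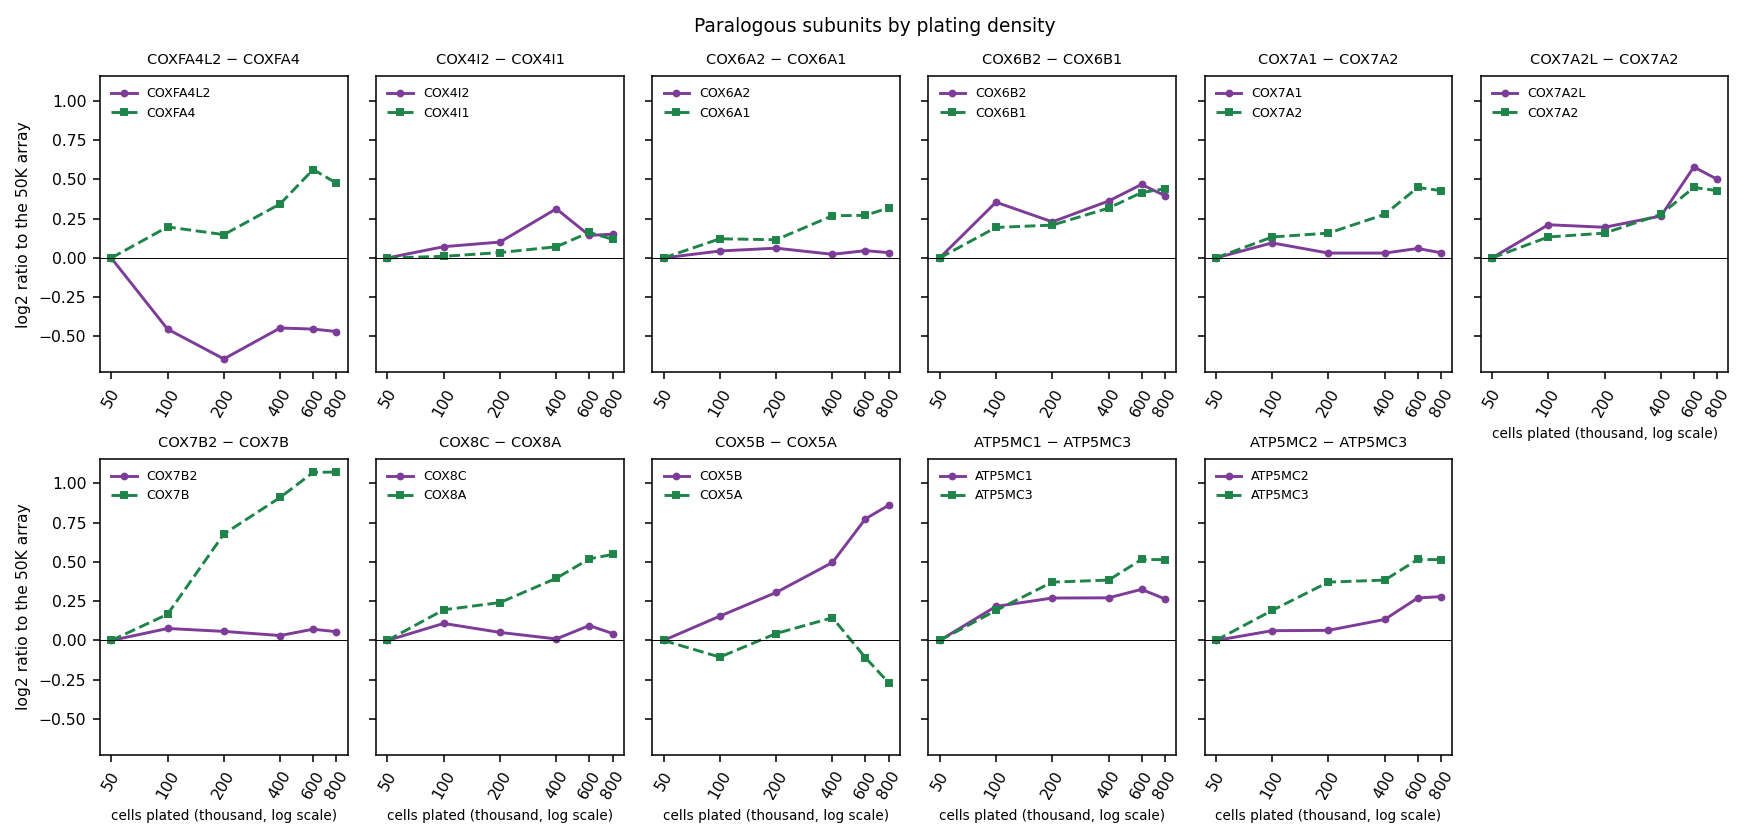
Log2 ratio to the 50K array (y axis) against cells plated on a log scale (x axis) for the 11 pairs; the purple solid line is the first gene of the title and the green dashed line the second. COX7B2, COX8C, COX7A1 and COX6A2 stay near 0 while their partners climb, and COXFA4L2 drops at 100K and stays below 0.

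Probe sets of a gene could differ. Of the 154 probe sets of members tested alone, 55 rose and 1 fell, against 5.94% and 7.96% of all 54613 probe sets tested. The falling probe set belongs to NDUFV3, with ratios of 1.04, 0.830, 0.686, 0.673 and 0.748 (slope −0.155, limma adjusted p = 0.038); its other probe set had 0.999 at 800K. Among the 44 members with several probe sets, 12 had slopes of both signs. In UQCR11, the smallest subunit of complex III, 1 probe set rose to 1.63 at 800K (slope 0.173, adjusted p = 0.00961) and the other was at 0.740 (slope −0.125, adjusted p = 0.151), and the gene's mean was not called. In NDUFV1, the core subunit that oxidises NADH, 1 probe set rose to 1.40 at 800K (slope 0.108, adjusted p = 0.0203) and the other was at 0.930. NDUFS7, the core subunit next to the ubiquinone site, had a probe set that rose to 1.28 (slope 0.101, adjusted p = 0.0233) and another at 0.922.

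NDUFC1, a small membrane subunit, had a probe set that rose to 1.49 at 800K (slope 0.128, limma adjusted p = 0.0332) and another that stood at 0.672. Of the probe sets of NDUFA2, a subunit of the matrix arm, 1 rose to 1.52 at 800K (slope 0.145, adjusted p = 0.01) and the others were at 0.992 and 1.03. COX4I1, the largest nuclear subunit of complex IV, had 2 rising probe sets at 1.19 and 1.20 at 800K and 2 flat ones at 0.964 and 1.00. In all, 9 members that were not called had at least 1 rising probe set. Which transcript each probe set reads was not analysed here, so neither probe set of such a gene can be preferred.

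**Figure D4:**
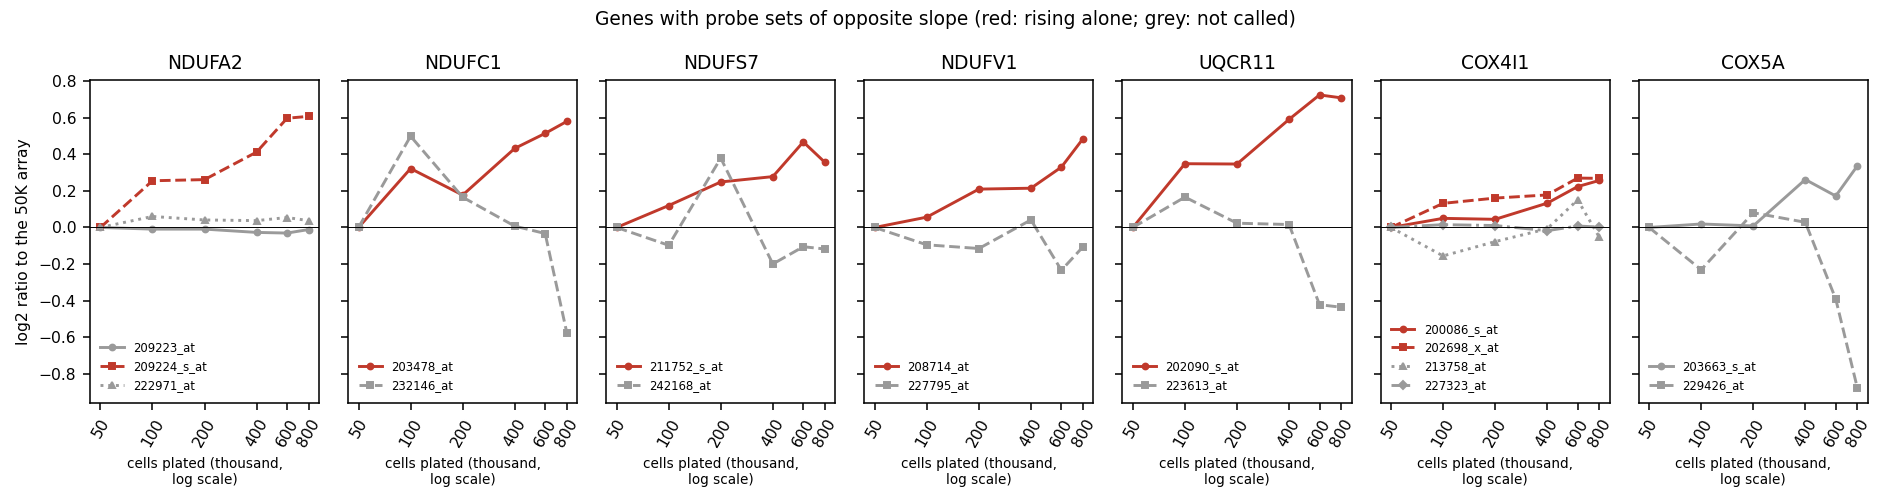
Log2 ratio to the 50K array (y axis) against cells plated on a log scale (x axis) for each probe set of 7 genes whose probe sets have slopes of both signs; red lines are probe sets called rising when tested alone and grey lines are not called. At 800K, UQCR11, NDUFC1 and COX5A each have 1 probe set above 0 and 1 below.

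Genes for factors that assemble the complexes moved in both directions. Of 55 assembly factors, 5 rose (9.09%), a share near that of all genes, and 11 fell (20%, against 12.4% of all genes), with a median slope of −0.010. FMC1, known from yeast as a factor for the F1 part of ATP synthase, rose to 2.26 at 800K (slope 0.293 ± 0.035, limma adjusted p = 0.00449), and TTC19, a complex III factor, rose to 1.35 (0.121 ± 0.016, adjusted p = 0.00539). CMC2, a factor of cytochrome c oxidase, fell to 0.438 at 800K (slope −0.312 ± 0.034, adjusted p = 0.00334), and NDUFAF3, a complex I factor, fell to 0.505 (slope −0.232 ± 0.045, adjusted p = 0.0175). Of 15 genes for cytochrome c and coenzyme Q synthesis, 1 rose, COQ5, a methyltransferase (slope 0.115 ± 0.026, adjusted p = 0.0291), and 5 fell. Of the falling genes COQ10A, a coenzyme Q-binding protein, was at 0.378 at 800K (slope −0.407 ± 0.059, adjusted p = 0.00726) and HCCS, which attaches haem to cytochrome c, at 0.611 (slope −0.188 ± 0.024, adjusted p = 0.00541). With 1 array left out, NDUFAF3 was lost without the 100K or 600K array (adjusted p up to 0.0626) and COQ5 without the 50K, 400K or 600K array (up to 0.18), and the count of falling assembly factors was 6 when the 600K array was left out and 7 when the 800K array was, while that of rising ones was 3 without the 800K array. In the list for cytochrome c and coenzyme Q synthesis, 3 genes fell without the 100K array, and when the 400K, 600K or 800K array was left out 2 fell, HCCS and COQ10A.

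The enzymes that supply the chain with NADH and succinate rose or were not called. Of 15 genes of pyruvate dehydrogenase and the citric acid cycle, 6 rose (40%) and 0 fell in limma, where 8.93% of all genes rose and 12.4% fell. Of the 15, 8 had an unadjusted p under 0.05, and the median slope was 0.056. SUCLA2, a subunit of succinyl-CoA ligase, rose to 1.67 at 800K (slope 0.191 ± 0.022, adjusted p = 0.00398), and MDH2, mitochondrial malate dehydrogenase, rose to 1.27 (slope 0.094 ± 0.018, adjusted p = 0.0153). CS, citrate synthase, which makes the first product of the cycle, stayed between 0.991 and 1.05 (slope −0.002 ± 0.013, adjusted p = 0.953). Among 11 carriers of ATP, phosphate and metabolites, SLC25A3, which brings phosphate to the synthase, rose to 1.44 (slope 0.139 ± 0.021, adjusted p = 0.00791) and SLC25A10, the dicarboxylate carrier, fell to 0.441 (slope −0.300 ± 0.051, adjusted p = 0.0119). Each of the 2 was the only call in its direction, 9.09% of the carriers, near the shares of all genes. Of 18 genes of glycolysis and lactate metabolism, 2 rose (11.1%, near the share of all genes) and 0 fell. The rising genes were ALDOC (to 2.14, slope 0.267 ± 0.035, limma adjusted p = 0.00565) and GPI (to 1.36, slope 0.095 ± 0.016, limma adjusted p = 0.0106). Of the 18, 6 had an unadjusted p under 0.05, and the median slope was 0.001. The count of rising citric acid cycle genes was 3, 1 and 2 when the 50K, 600K and 800K arrays were left out in turn; MDH2 was lost without the 600K or 800K array (adjusted p up to 0.0697) and GPI without the 50K array (0.0578).

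Among genes for the expression of mitochondrial DNA, more fell than rose, which also held over all genes (12.4% falling, 8.93% rising). Of 75 mitochondrial ribosomal proteins, 3 rose and 18 fell (24%), with a median slope of −0.048; MRPL20 rose to 1.41 and MRPL49 fell to 0.568 at 800K. Of 19 genes for the upkeep and transcription of mitochondrial DNA, 1 rose, LRPPRC, which stabilises mitochondrial mRNA (slope 0.054 ± 0.013, limma adjusted p = 0.0336), and 6 fell, among them MTERF2, of a family of transcription terminators (to 0.451, slope −0.254 ± 0.033, adjusted p = 0.00557) and TWNK, the replicative helicase (to 0.584, slope −0.196 ± 0.037, adjusted p = 0.016). Of 7 subunits encoded in mitochondrial DNA, a list added after the files were seen, 0 rose and 1 fell in limma, and 1 had an unadjusted p under 0.05. This was ND6, a complex I subunit read by 1 probe set, with ratios of 0.620, 0.815, 0.559, 0.388 and 0.335 (slope −0.348 ± 0.072, adjusted p = 0.0208). The other 6 had slopes between −0.012 and 0.036. The count of falling mitochondrial ribosomal proteins was 10 when the 100K or the 400K array was left out, 4 when the 600K array was and 5 when the 800K array was. Without the 50K array it was higher than 18. Some calls were then gained, such as that of MRPL48 (limma adjusted p = 0.0163), and some lost, such as that of MRPL12 (0.218). The count of rising ones was 0 in limma when the 50K, 600K or 800K array was left out (adjusted p of the 3 genes up to 0.133). In the list for the upkeep and transcription of mitochondrial DNA, MGME1, MTERF3 and MTERF2 were the 3 that fell when the 100K, 600K or 800K array was left out. ND6 was lost without the 50K, 600K or 800K array (adjusted p up to 0.121), TWNK and MRPL49 without the 100K, 600K or 800K array (up to 0.0638 and 0.0759), MRPL20 without the 50K, 600K or 800K array (up to 0.094), and LRPPRC whichever array was left out (up to 0.161).

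Of 16 known regulators of respiratory genes, 3 rose (18.8%) and 4 fell (25%), where 8.93% of all genes rose and 12.4% fell. TFEB, a factor of lysosomal and mitochondrial genes, rose, with its highest ratio of 1.70 at 600K (slope 0.187 ± 0.029, limma adjusted p = 0.00892), and ESRRA, a receptor that binds the ERR site, rose to 1.37 (slope 0.109 ± 0.021, adjusted p = 0.0172). GABPB1, the subunit that gives GABP its activating part, fell to 0.437 (slope −0.289 ± 0.032, adjusted p = 0.00349), and NRF1, whose site was searched above, fell to 0.648 (slope −0.154 ± 0.027, adjusted p = 0.0133). PPARGC1A, a coactivator of respiratory genes, stayed between 1.05 and 1.10 (slope 0.015 ± 0.016, adjusted p = 0.631). ESRRA was lost without the 100K, 600K or 800K array (adjusted p up to 0.0672) and NRF1 without the 50K or 800K array (up to 0.0592). Without the 100K or the 600K array 1 regulator rose, TFEB, and without the 800K array 2 fell.

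**Figure D5:**
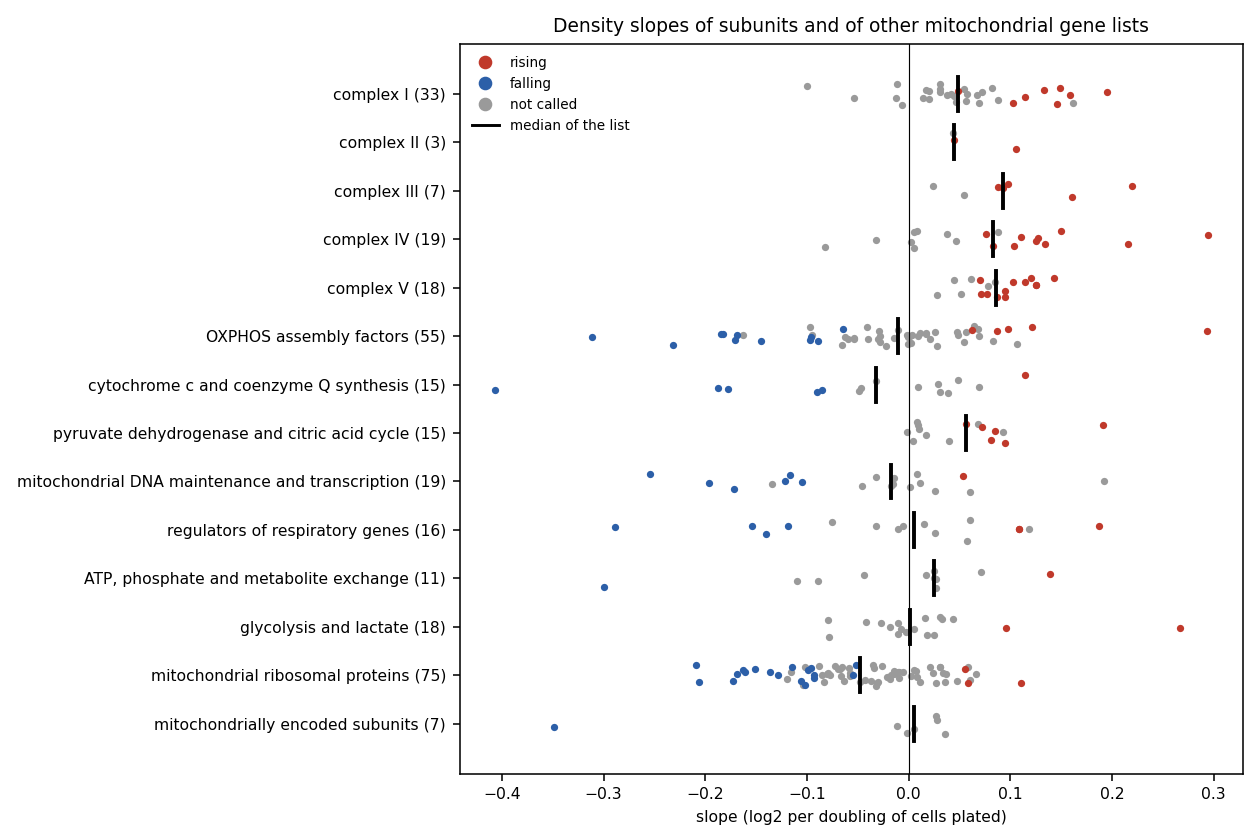
Slopes in log2 units per doubling of the cells plated (x axis) of the genes of the 5 complexes and of 9 other lists (rows, with the number of genes; points are spread vertically for legibility); red rose, blue fell, grey was not called, and the black bar is the list's median. Medians lie at 0.045 to 0.093 for the 5 complexes, 0.056 for pyruvate dehydrogenase and the citric acid cycle and −0.048 for mitochondrial ribosomal proteins.

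Several other measures moved with density beside the subunits. Of 8 epithelial markers, KRT14, CDH1 and KRT5 rose, to 3.01, 1.74 and 1.42 at 800K, and LAMB3 fell to 0.430. Over all genes, 8.93% rose and 12.4% fell. Markers of other cell types rose in 1 of 8 for fibroblasts (DCN, 1.28), 2 of 6 for endothelial cells (KDR, 1.73; PECAM1, 1.41), 1 of 5 for leukocytes (CD14, 5.66) and 0 of 5 for adipocytes in limma, where 1 had an unadjusted p under 0.05; 0 of these fell, and summed levels or markers at 0 cannot be read from ratios. The ratio of 3′ to 5′ probe sets of ACTB, a sign of RNA integrity and labelling, was −0.02, 0.04, 0.17, 0.22 and 0.30 log2 units from 100K to 800K relative to 50K, while that of GAPDH lay between −0.05 and 0.07. Poly-A controls added before labelling were lower than at 50K on all 5 other arrays, with mean log2 ratios of −0.24, −0.42, −0.41, −0.38 and −0.25 from 100K to 800K. The part of these measures in the subunits' slopes was not tested.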

How the data were processed

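Total RNA of cells plated at 6 densities, 200 ng per array, was labelled with biotin, per the labels' protocols. The labels do not say if the RNA on an array came from 1 dish or more. Per the submitters' processing notes, RMA was used, with no version given. The values the authors deposited are linear ratios of each of 54675 probe sets to the 50K array, which is 1 throughout within a tolerance of 1e-06, and no source used here says how the ratio was formed. An array has no count depth, so precision depends on having 6 arrays.

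Ratios were put on the log2 scale with no pseudocount and no filter on low values, and a gene was the mean of all probe sets annotated to it alone (41091 probe sets, 19775 genes; 1801 probe sets with several symbols were left out). Trends, the quadratic term (3 residual degrees of freedom) and single probe sets were tested in R 4.3.3 with lmFit and eBayes of limma 3.58.1 (two-sided, Benjamini-Hochberg over the whole table). Gene pairs were tested by exact permutation, with the 95% interval of the slope from the straight-line fit. Errors after ± are standard errors of the fit. The density trend and the quadratic term were tried on simulated data with independent noise for each gene. A 2-fold change over the range was called in 88 of 100 genes and a 4-fold change in 99 of 100. Of 19575 unchanged genes, 19 were called. A quadratic term of 1 was called in 169 of 200 genes, while the largest term of a member was 0.340 (COXFA4L2). Trends of less than 2-fold were not simulated. Among the members only COX7B had a larger fitted change (2.26-fold), so how often trends the size of the others would be called is not known.

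The members and lists were chosen with earlier results of these data known. The genes named were, per complex, the 4 rising and 2 falling called members with the largest slopes, and all of complex II. Also named were the genes of the pairs tested, ATP5IF1, and members with probe sets of both signs of which at least 1 was called. Up to 2 called genes per direction of each other list were added. NDUFB1, NDUFV3, NDUFA6, UQCRB, ATP5F1A, ATP5F1B, CS, PPARGC1A and the markers were named after their values were seen. Alternatives left out probe sets ending in _x_at or _s_at, centred the arrays on their medians, used the cell number or its rank, took the probe set with the largest spread per gene, used robust variances, set the 3 lowest against the 3 highest densities, tested each probe set alone, put the NDUFA4 genes with complex I, and left out each array in turn.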

Additional observations from a re-analysis of the deposited data

How the results depend on the processing

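No paired analysis was possible because each density has 1 array and the labels number no replicates. All of the 37 rising members that could be measured kept a positive slope under each alternative gene fit. The number of rising members was 23 of 67 without probe sets ending in _x_at or _s_at, 12 with the 3 lowest against the 3 highest densities, 55 of 154 probe sets tested alone, 15 to 34 with 1 array left out and 29 to 38 otherwise. A falling member, NDUFV3, appeared without _x_at and _s_at probe sets (1), with the probe set of largest spread (1) and among probe sets alone (1). With 1 array left out, the rising members numbered 2 to 8 in complex I, 0 to 1 in II, 3 to 5 in III, 6 to 11 in IV and 3 to 11 in V. Without _x_at and _s_at probe sets there were 5 in complex I, 1 in II and 5 in V; with 3 against 3 densities, 1, 1, 2, 5 and 3 in complexes I to V; with the largest-spread probe set, 1 in II; on the cell number itself, 7 in V; and of probe sets alone, 15, 1, 9 and 16 in complexes I to IV. Over all genes, 1765 rising and 2455 falling became 1157 and 1507 without _x_at and _s_at probe sets, 908 and 1351 with 3 against 3 densities, and 1026 to 1627 and 1362 to 2282 with 1 array left out. The mean log2 ratio of complex II without _x_at and _s_at probe sets was −0.12 at 100K and −0.025 at 200K. With the largest-spread probe set, means were −0.12 (II, 100K), 0.40 (II, 600K), 0.44 (III, 400K) and 0.49 (V, 800K), and 19 members reached 1.5-fold higher at 800K; 1 member, COX5A, was 1.5-fold lower there and 1 without _x_at and _s_at probe sets. With the largest-spread probe set, the differences COX5B minus COX5A (0.375) and ATP5MC1 minus ATP5MC3 (−0.135) lost their call (exact permutation adjusted p = 0.0546 for each). ATP5MC2 minus ATP5MC3 gained a call without _x_at and _s_at probe sets (−0.144, exact permutation adjusted p = 0.0111). With 1 array left out, the slope differences lay between −0.242 and −0.107 for COXFA4L2, −0.077 and −0.068 for COX6A2, −0.128 and −0.100 for COX7A1, 0.193 and 0.283 for COX5B, and −0.082 and −0.056 for ATP5MC1, each against its partner. Signs turned for TACO1 (0.038, limma adjusted p = 0.269) and COQ7 (0.0079, 0.868) without _x_at and _s_at probe sets and for FASTKD2 (−0.124, 0.0288) and MRPS30 (−0.117, 0.0206) with the largest-spread probe set. The cause of these changes was not tested. Ratios give no signal over background, so what that limits is unknown.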

Other observations

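Of the 5 genes of the chain read only by probe sets shared with other genes, UQCRH and its retrocopy UQCRHL, a hinge protein of complex III, shared a probe set with ratios of 1.11, 1.12, 1.23, 1.33 and 1.32 from 100K to 800K, which rose when tested alone (slope 0.102, limma adjusted p = 0.0112). The probe sets of the others were not called. That of NDUFS5, shared with RPL10, was at 1.14 at 800K, those of NDUFS8, shared with microRNA genes, lay between 1.11 and 1.32, and those of NDUFC2, shared with a readthrough gene, lay between 0.953 and 1.00.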
